A study of Mus musculus with 2 samples.

Results

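Of the 38366 regions enriched for N6-methyladenosine (m6A) in mouse uterus, 1855 had their summit at most 250 bases inside an end of a long protein-coding gene. A region counted where its summit, the base with the most signal, lay on an autosome in exactly 1 annotated gene span, and that span was protein-coding and over 10000 bases long. The 1855 gene-end peaks fell in 1758 genes, out of 13281 such genes in the annotation and 8349 that held any peak counted by the same rule, of which they are 21.1%. The RefSeq table of start sites gave the strand for 10548 of the 13281 genes. With it, 796 peaks were placed at the gene start, where the transcript begins, and 683 at the gene stop, where the annotated transcript ends (not the stop codon). These are 11.9% and 10.2% of the genes of known strand with any peak, and no gene had more than 1 peak at the same end. The other 376 peaks, 35 of them on chromosome 18, lay in genes without a listed strand and were not placed.

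The study compared 1 library of RNA bound by an anti-m6A antibody with 1 input library without antibody, both from whole uterus of C57BL/6 mice. Per its label, the antibody sample mixed uterus of gestation day 4 and gestation day 8 in equal parts, and the label of the input names no day. No gene was altered and no agent was given in either group, as far as the labels say. The names inside the peak list mention day 8 and not day 4, so the makeup of the antibody sample rests on its label. With 1 library a group there was no test between groups. The number of animals pooled is not given in the sources used here. Of the defining markers of the uterine wall, all 8 stromal, all 6 endothelial and all 6 epithelial genes carried a peak, and 7 of 8 smooth muscle genes did, all but Tagln. So did 3 of 4 immune genes, all but Cd3e, and all 4 genes of the trophoblast. Of all 13281 long protein-coding genes, 62.9% held a peak, so these counts alone say little about a cell type. The markers were picked by name and not by gene length, so that share is only a rough comparison. The cell of origin of a transcript cannot be read from a peak in whole tissue, and fewer cells of a type and less RNA per cell cannot be told apart.

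m6A is written on mRNA by a complex of METTL3 and METTL14, mostly at a short motif around a central adenosine, and is known to be common in long internal exons and around stop codons. A related mark, m6Am, sits on the first transcribed base next to the cap when that base is an adenosine, is written by PCIF1, and is also bound by anti-m6A antibodies. Signal near the start of a transcript in this kind of assay can therefore come from either mark. RNA is broken into fragments before the antibody step, so a peak near a transcript end reports a fragment and not a single base.

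The annotated starts of the most enriched gene-start peaks are shown first, because they hold the base next to the cap. Each window runs from 60 bases before to 30 bases after the start in the RefSeq table (GRCm38.p6, the assembly of mm10), 5′ to 3′ on the gene's strand. The capital letter is the first annotated base. The summits themselves lay 104 to 213 bases inside the gene span and are not in these windows.
Ssbp3, chr4:106911410-106911499, + strand: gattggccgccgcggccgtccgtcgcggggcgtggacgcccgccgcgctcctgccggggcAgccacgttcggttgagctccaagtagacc
Syncrip, chr9:88482368-88482457, - strand: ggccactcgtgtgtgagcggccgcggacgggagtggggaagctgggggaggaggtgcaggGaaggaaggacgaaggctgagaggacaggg
Lemd3, chr10:120979301-120979390, - strand: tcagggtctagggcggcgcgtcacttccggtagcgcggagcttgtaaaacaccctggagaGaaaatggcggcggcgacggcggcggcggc
Plxna2, chr1:194619769-194619858, + strand: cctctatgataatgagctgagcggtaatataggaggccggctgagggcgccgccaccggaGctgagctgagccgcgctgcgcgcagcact
Ppp2ca, chr11:52098764-52098853, + strand: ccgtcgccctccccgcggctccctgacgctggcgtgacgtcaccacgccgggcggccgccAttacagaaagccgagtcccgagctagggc
Of these 5 windows, those of Ssbp3 and Ppp2ca begin with A and those of Syncrip, Lemd3 and Plxna2 with G. The listed start of Ssbp3 and Ppp2ca is the outer end of the gene span, while that of Plxna2 lies 38 bases inside it, that of Lemd3 66 and that of Syncrip 194. The Syncrip summit, 104 bases inside the span, is thus upstream of the listed start. This was the case at 15 of the 754 gene-start peaks with a listed start near the span end (1.99%).

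Gene-start and gene-stop peaks were placed differently within their 250 bases. At the start, the number of summits per 50 bases was 50 in the first bin, 245 at 101 to 150 bases and 144 at 201 to 250 bases. Over 1000 and up to 2000 bases from the start it averaged 20.8, with a range of 11 to 36. At the stop, only 38 of the 683 summits lay in the first 150 bases, and 645 (94.4%) lay over 150 bases from it. Their quartiles were 190 and 214 bases from the stop, with a median of 199, and 445 (65.2%) fell between 180 and 220 bases. The quartiles at the start were 105 and 186 bases, with a median of 144. Further inside from the stop the number of summits stayed high, at a mean of 81.1 per 50 bases over 1000 and up to 2000 bases.

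**Figure D1:**
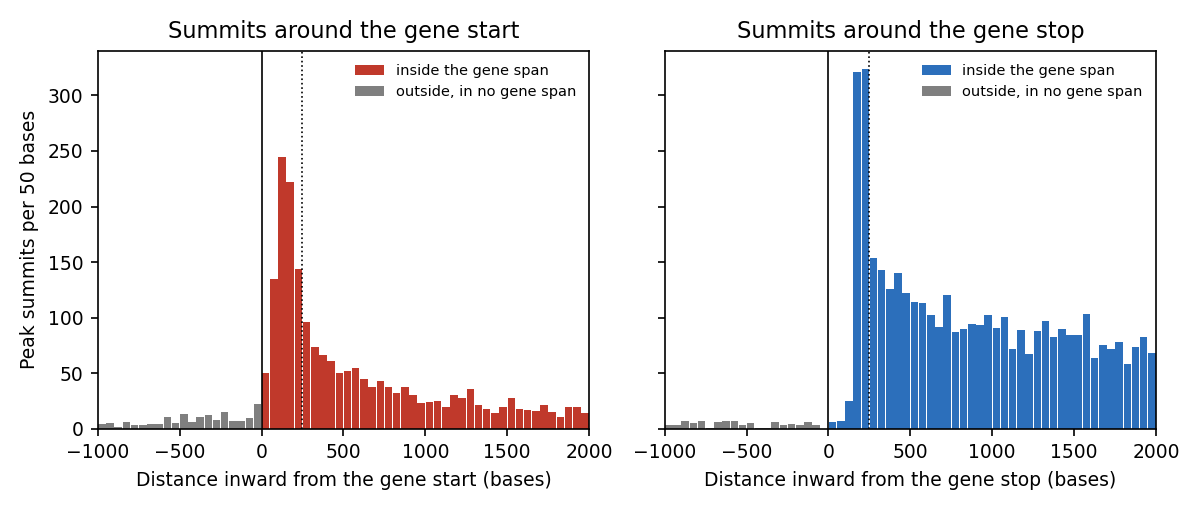
Number of peak summits per 50 bases (y axis) by distance inward from the gene start (left) or the gene stop (right), in bases, for genes of known strand; coloured bars lie inside the gene span, grey bars outside it in no gene span, and the dotted line marks 250 bases. The start side peaks at 245 summits in the bin of 101 to 150 bases and falls away, whereas the stop side holds 321 and 324 summits in the bins of 151 to 200 and 201 to 250 bases and stays above the start side further in.

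Summits just outside the same gene ends were few. In the 250 bases beyond the start, 61 summits lay in no gene span, with a median enrichment of 6.50-fold, against 796 inside. Beyond the stop there were 16, with a median of 5.25-fold, against 683 inside. The peaks themselves crossed the start more often than the stop: 423 of 796 gene-start peaks (53.1%) ran past the annotated start, by a median of 47 bases, and 24 of 683 gene-stop peaks (3.51%) ran past the stop. The outer edge of the peak lay a median of 71 bases inside the stop. The longest run past a start was 1128 bases. Among the genes named here, Ep300 had 832 bases, Fam20c 558 and Ppp4r3b 546.

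Gene-start peaks had higher enrichment than gene-stop peaks and rested on fewer fragments. Fold enrichment is the authors' value at the summit. It is read here as the fragments pulled down by the antibody (IP fragments) plus 1, over the local background plus 1. The median fold was 8.21 at the start (95% order-statistic interval of the median 7.90 to 8.70) and 4.88 at the stop (4.64 to 5.20). Such intervals take the peaks of a single library as separate draws, and these peaks are not replicates. Peaks of the same kind of gene over 250 bases from either end had a median of 6.07 (6.04 to 6.13), and all peaks 6.16. Of all peaks in the list, 14.8% reached 10-fold, and of those over 250 bases from either end 13.8% did. At the start 280 of 796 did (35.2%, exact Clopper-Pearson interval 31.9 to 38.6), and at the stop 39 of 683 (5.71%, 4.09 to 7.72). Below 4-fold stood 11 gene-start peaks (1.38%) and 230 gene-stop peaks (33.7%), against 15.6% of all peaks and 16.2% of those over 250 bases from either end.

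The order was the opposite for the fragments themselves. The median summit held 18 IP fragments at the start and 37 at the stop, over a local background of 1.20 and 6.67 scaled fragments. At the genome-wide background of 0.462, the floor used where the input gives no higher local estimate, stood 76 gene-start peaks (9.55%) and 19 gene-stop peaks (2.78%), against 7.43% of all peaks and 3.92% of those over 250 bases from either end. Since fold divides by background plus 1, the ends were also compared within classes of background, a comparison chosen after these values were seen. The gene-start and gene-stop peaks together were divided into 4 classes of background of about equal size. The classes are wide, the highest running from 6.18 to 57.4, so background can still differ between the ends within a class. In the lowest class, up to 0.988, the median was 7.97-fold in 328 gene-start peaks and 7.44-fold in 42 gene-stop peaks. In the second class it was 8.95-fold against 7.27-fold, and in the third, from 2.10 to 6.18, 8.47-fold against 5.85-fold. In the highest class, 22 gene-start peaks had 6.69-fold and 348 gene-stop peaks 3.85-fold. Start was above stop in each class, by little in the lowest. Peaks over 250 bases from either end had medians of 6.80, 7.16, 6.40 and 4.82-fold, from the lowest class up. The gene-start median was above theirs in each class. The gene-stop median was above theirs in the lowest and second class and below theirs in the third and highest. The part of the background in the difference between the ends was not tested further. The −log10 q, which weighs fold and depth together, had a median of 13.3 at the start and 12.2 at the stop.

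**Figure D2:**
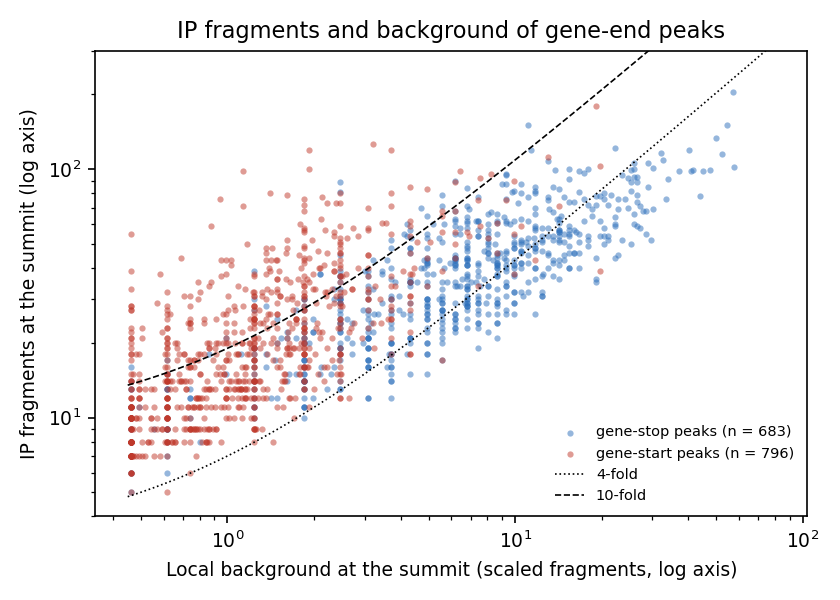
IP fragments at the summit (y axis, log scale) against local background in scaled fragments (x axis, log scale), 1 point per peak, for 796 gene-start and 683 gene-stop peaks; the dotted and dashed lines mark 4-fold and 10-fold enrichment. Gene-start peaks gather at low background around a median of 1.20 and gene-stop peaks around 6.67. Most peaks of both ends stand below the 10-fold line, which 35.2% of gene-start and 5.71% of gene-stop peaks reach.

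The median width was 261 bases for gene-start and 316 for gene-stop peaks, against 339 for all peaks over 250 bases from either end and 286 for those over 5000 bases from both. At least 1000 bases wide were 2.39% of gene-start and 3.07% of gene-stop peaks, against 11.2% of the others. The narrowest width in the list, 200 bases, was that of 67 of 796 gene-start and 31 of 683 gene-stop peaks. It was also that of 1323 of the 23291 peaks over 250 bases from either end and 2551 of all 38366.

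Median enrichment was lower further from the start and somewhat higher further from the stop. Peaks over 250 and up to 500 bases from the start had a median of 7.20-fold, those up to 1000 bases 7.06-fold, and those up to 5000 bases 6.71-fold. From the stop, the medians over the same distances were 4.87-fold, 5.33-fold and 5.83-fold. The median background went the other way at the start, from 1.20 within 250 bases to 2.47 over 1000 and up to 5000 bases, and stayed between 6.18 and 6.79 at the stop.

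Ssbp3, the gene with the highest gene-start peak, encodes a single-stranded DNA-binding cofactor of LIM-domain transcription complexes. Its peak (chromosome 4, 106911445 to 106911906) held 98 IP fragments over a background of 1.14, or 46.3-fold (exact 95% Poisson interval on the IP fragments 37.7 to 56.4). Syncrip, an RNA-binding protein of the hnRNP family, held 119 fragments over 1.93, or 41.0-fold (34.0 to 48.995), in its peak on chromosome 9 (88482064 to 88482672). Lemd3, an inner nuclear membrane protein that restrains Smad signalling, reached 39.7-fold (31.4 to 49.6) from 76 fragments on chromosome 10 (120977764 to 120979395). Plxna2, a semaphorin receptor, reached 38.3-fold (29.0 to 49.7) from 55 fragments at the genome-wide background, on chromosome 1 (194619783 to 194620397). Ppp2ca, the catalytic subunit of protein phosphatase 2A, reached 34.5-fold (28.1 to 41.9) from 100 fragments on chromosome 11 (52098759 to 52099139). The intervals of these 5 overlap from Ssbp3 to Ppp2ca, and their order was not tested. All intervals here hold the background fixed and cover counting error only, since PCR copies are not independent molecules.

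The next 5 were also the highest peaks of their genes. Mphosph8, a chromodomain protein of a silencing complex, reached 33.7-fold, and Actn4, an actin-crosslinking alpha-actinin, 33.6-fold. Lgr4, a receptor for R-spondins in Wnt signalling, reached 31.97-fold from 59 fragments. Rexo4 reached 30.7-fold, and Arhgap11a, a GTPase-activating protein, 30.2-fold (25.2 to 35.9) from 126 fragments. All 10 of these genes had at least 2 peaks, and the gene-start peak was the highest in each.

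**Figure D3:**
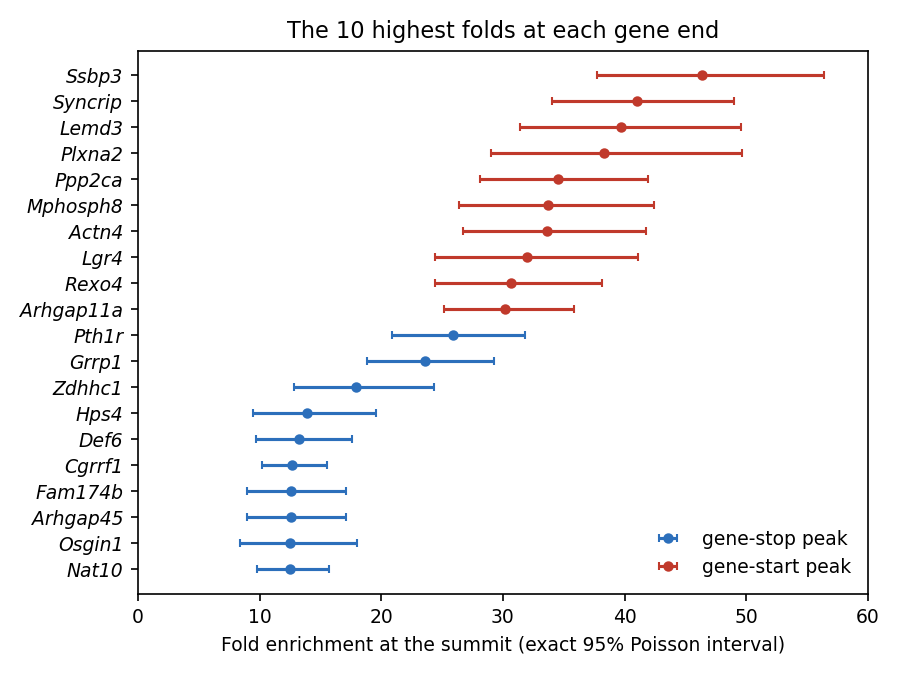
Fold enrichment at the summit (x axis, points) with exact 95% Poisson intervals (bars) for the 10 highest gene-start and the 10 highest gene-stop peaks with −log10 q of at least 5. The gene-start peaks run from 30.2-fold in Arhgap11a to 46.3-fold in Ssbp3, and the gene-stop peaks from 12.5-fold in Nat10 to 25.9-fold in Pth1r.

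Some gene-start peaks were strong in fragments rather than in fold. Cavin1, a coat protein of caveolae, had the most IP fragments of any gene-start peak, 179 over a background of 19.1, which gave 8.94-fold (7.68 to 10.3). Dkk2, a secreted modulator of Wnt signalling, held 119 over 3.71, or 25.5-fold (21.2 to 30.5). Ror1, a receptor of the Wnt5a pathway, held 112 over 12.97, or 8.09-fold (6.67 to 9.72). In all 3 the gene-start peak had the highest fold of the gene. At the other extreme, Tmem176b stood at 1.93-fold (1.38 to 2.62), Ube2r2, a ubiquitin-conjugating enzyme, at 2.74-fold and Prcc at 3.46-fold, each the lowest peak of its gene.

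At the gene stop, 2 peaks passed 20-fold. Pth1r, the receptor for parathyroid hormone and its related peptide (chromosome 9, 110722137 to 110722824), held 89 fragments over a background of 2.47, or 25.9-fold (20.9 to 31.8). Grrp1 (chromosome 4, 134251130 to 134252318) held 81 fragments over the same background, or 23.6-fold (18.8 to 29.3), at its only peak. Zdhhc1, of the protein palmitoyltransferase family, followed at 17.9-fold (12.9 to 24.3), and Hps4, which serves lysosome-related organelles, at 13.9-fold (9.50 to 19.6). The interval of Pth1r overlaps those of Grrp1 and Zdhhc1 and lies above that of Hps4.

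The other 6 of the 10 highest gene-stop peaks stood close together. They were Def6 at 13.3-fold, Cgrrf1 at 12.7-fold, the GTPase-activating protein Arhgap45 and Fam174b at 12.6-fold each, Osgin1 at 12.5-fold and Nat10, the enzyme that acetylates cytidine in RNA, at 12.5-fold. Their intervals overlap and the widest, that of Osgin1, runs from 8.41 to 18.02.

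The gene-stop peaks with the most fragments lay over deep background. Psap, which encodes the precursor of the lysosomal saposins, held 205 IP fragments over a background of 57.3, or 3.53-fold (3.07 to 4.05). P4hb, a protein disulfide isomerase, held 150 over 54.3, or 2.73-fold, and Col4a2, a basement membrane collagen, 133 over 50.02, or 2.63-fold. Emilin2, a matrix glycoprotein, held 122 over 22.2, or 5.29-fold. Ext2, which elongates heparan sulfate chains, was the exception among these 5, with 150 fragments over 11.1 and 12.5-fold (10.6 to 14.6). The lowest gene-stop folds were 1.73 in Anxa1, 1.76 in Lama5 and 1.76 in Dmkn, over backgrounds of 29.6 to 57.4.

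Among peaks of genes without a listed strand, Gnai2, an inhibitory G protein subunit, stood highest at 46.5-fold (38.1 to 56.3) from 103 fragments. Akap12, an anchor of protein kinase A, reached 34.9-fold at the genome-wide background, Tmem64 31.5-fold, Cdk19, a kinase of the Mediator complex, 28.1-fold, and Rnf11 27.3-fold. Which end these 5 peaks mark is not known here. The 376 unplaced peaks had a median of 6.28-fold, between the medians of the start and the stop.

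By fold, a gene-start peak was often the highest peak of its gene, and a gene-stop peak seldom was. Among peaks over 250 bases from either end in genes with at least 2 peaks, 24.5% were the highest of their gene. The share was 397 of 700 gene-start peaks (56.7%, exact Clopper-Pearson interval 53.0 to 60.4) and 102 of 501 gene-stop peaks (20.4%, 16.9 to 24.2). In genes of exactly 2 peaks it was 121 of 162 at the start (74.7%) and 47 of 152 at the stop (30.9%), against 50% of the peaks further in. Peaks over 250 and up to 500 bases from the start were the highest of their gene in 46.5% of cases (40.8 to 52.2). A gene-end peak was the only peak of its gene at 96 starts (12.1%) and 182 stops (26.6%), against 9.65% of the peaks further in. Among the peaks over 250 and up to 500 bases from the same ends, the share was 10.7% at the start and 21.3% at the stop. Peaks of 1 gene share its transcripts, so these intervals, too, cover counting only. The ranks are by fold, over a median background of 1.20 at the start, 4.32 further in and 6.67 at the stop. Median IP fragments ran the other way, with 18, 32 and 37. Ranks by fragments or at like background were not tested.

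Genes with a peak at an end had a peak at the other end about as often as all genes with a peak. Of the 1404 genes of known strand with either, 75 had both. A gene-stop peak was found in 9.42% (7.48 to 11.7) of genes with a gene-start peak, against 10.2% of all genes of known strand with a peak. A gene-start peak was found in 10.98% (8.74 to 13.6) of genes with a gene-stop peak, against 11.9%. Both exact Clopper-Pearson intervals hold the share over all such genes. In 60 of the 75 genes the start had the higher fold, with medians of 8.62 and 4.63. In 63 it had the fewer IP fragments and in 71 the lower background, with median backgrounds of 1.36 and 9.26.

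The 10 genes whose weaker end was strongest fell into both orders. Popdc2, a cyclic AMP-binding membrane protein of muscle, had 19.9-fold (14.7 to 26.4) at the start and 7.16-fold (4.20 to 11.5) at the stop. Bag6, a chaperone, had 15.7-fold (11.6 to 20.7) and 7.33-fold (5.71 to 9.28), Fam20c, a kinase of secreted proteins, 13.5-fold and 7.80-fold, and Mxd4, a Max-binding repressor, 12.7-fold and 7.62-fold. In Popdc2, Bag6 and Fam20c the intervals of the ends do not overlap, and in Mxd4 they do. The stop was the higher end in Ext2, with 12.5-fold against 7.53-fold, in Kcnk12, a potassium channel, with 11.5-fold against 7.36-fold, in the transcription factor gene Batf, with 10.9-fold against 8.21-fold, and in Utp20, a factor of ribosome assembly, with 10.1-fold against 6.71-fold. In these 4 the intervals overlap. Stx2 and Olfm1 had nearly equal folds at both ends, 8.21 and 8.76 in Stx2 and 7.53 and 6.95 in Olfm1.

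**Figure D4:**
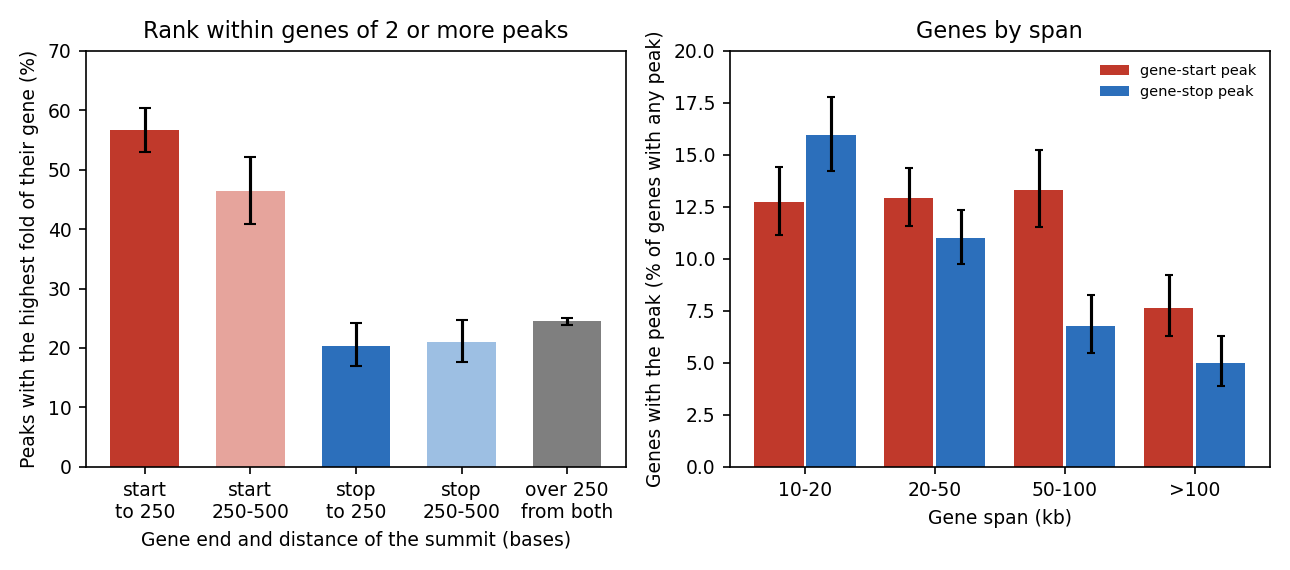
Left, share of peaks in genes with at least 2 peaks that have the highest fold of their gene (y axis, %), by gene end and distance of the summit; right, share of genes with any peak that have a gene-start or gene-stop peak (y axis, %), by gene span in kb; bars are shares and lines exact Clopper-Pearson 95% intervals. The share of highest peaks is 56.7% at the start and 20.4% at the stop, and the share of genes with a gene-stop peak falls from 15.9% to 4.98% over the 4 classes of span.

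Gene-stop peaks became rarer in longer genes. Of genes with any peak, 15.9% (14.2 to 17.8) had a gene-stop peak when the span was over 10 and up to 20 kb, 11.01% (9.77 to 12.3) up to 50 kb, 6.76% (5.47 to 8.26) up to 100 kb and 4.98% (3.88 to 6.28) beyond. The share with a gene-start peak was 12.7%, 12.9% and 13.3% in the first 3 classes and 7.65% (6.29 to 9.20) beyond 100 kb. The intervals of the first 3 start shares overlap and that of the last lies below them.

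The first annotated base was an A about as often in genes with a gene-start peak as in other genes with a peak. It could be read for 754 of the 796 genes with a gene-start peak, and for 520 of these the listed start was the very end of the span. An A stood there in 210 genes (27.9%, exact Clopper-Pearson interval 24.7 to 31.2), against 28.3% of all 5094 such genes with any peak. A G stood there in 395 (52.4%, 48.8 to 56.0), against 48.6%, a C in 86 (11.4%, 9.23 to 13.9), against 13.9%, and a T in 63 (8.36%, 6.48 to 10.6), against 9.19%. The intervals of A and T hold the share of all genes with a peak, while that of G lies just above it and that of C just below it. Read the other way, 14.6% (12.8 to 16.5) of genes beginning with A that held a peak had one at the start, as did 15.95% (14.5 to 17.5) of those with G, 13.5% (10.5 to 16.9) with T and 12.1% (9.80 to 14.7) with C. The intervals of A overlap those of the other 3 bases. Median fold was 8.70 with A, 8.66 with G, 7.46 with T and 7.36 with C. An annotated start can be off by some bases and many genes use several, so these shares describe the annotation and not the capped RNA of this tissue. Where the listed start was exactly the span end, the share with A was 30.4% (26.5 to 34.5), against 28.9% of such genes with any peak.

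Among 3 short motifs searched near the start, GGACT was about as frequent in genes with a gene-start peak as in all windows. AAACT, with only 10 matches, was less frequent than in all windows on the transcript's strand, but not clearly so against genes with any peak. The letters GGACT, a strong form of the m6A motif, were searched in the first 50 bases on the transcript's strand. They were found in 40 of 754 genes (5.31%, exact Clopper-Pearson interval 3.82 to 7.15), 4.83% of genes with any peak and 5.47% of all 8113 windows. AAACT was found in 10 (1.33%, 0.638 to 2.43), against 1.94% and 2.58%, an interval that holds the first of these and lies below the second. TATAAA, the core of the TATA box, was searched from 40 to 16 bases before the start and found in 8 (1.06%, 0.459 to 2.08), against 0.864% and 1.47%. On both strands the shares were 10.2% for GGACT, 4.51% for AAACT and 1.06% for TATAAA, against 10.4%, 6.00% and 1.87% of all windows. The interval of AAACT on both strands, 3.14 to 6.24, holds the 6.00%. GGACT and AAACT cannot overlap on 1 strand, and the stretch searched for TATAAA lies apart from theirs. A match describes the letters and not a site in use. The following windows are of the 2 highest gene-start peaks with TATAAA and the 2 highest with GGACT in the first 30 bases, because they show where that motif lies. They are written as above, and only the motif each is shown for is in capitals beside the first base.
Dkk2, chr3:132085232-132085321, + strand: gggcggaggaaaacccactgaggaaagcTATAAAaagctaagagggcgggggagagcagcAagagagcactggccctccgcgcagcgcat
Angpt4, chr2:151911147-151911236, + strand: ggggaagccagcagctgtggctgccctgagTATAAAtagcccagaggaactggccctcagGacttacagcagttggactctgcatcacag
Ermp1, chr19:29648386-29648475, - strand: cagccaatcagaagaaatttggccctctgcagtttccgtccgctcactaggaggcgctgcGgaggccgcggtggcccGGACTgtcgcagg
Golim4, chr3:75956920-75957009, - strand: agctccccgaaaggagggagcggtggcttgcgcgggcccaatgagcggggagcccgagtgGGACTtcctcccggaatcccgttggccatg
The TATAAA begins 32 bases before the start in Dkk2 and 30 in Angpt4, an angiopoietin that acts on endothelium. The Angpt4 window also holds GGACT from the base before the start and from base 15. The GGACT begins at base 18 in Ermp1, a peptidase of the endoplasmic reticulum, and at base 1 in Golim4, a Golgi membrane protein. Their peaks stood at 25.5-fold, 11.9-fold (9.02 to 15.4), 19.2-fold (12.9 to 27.6) and 15.3-fold (11.997 to 19.2).

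Starts with gene-start peaks were somewhat richer in G and C. The first 50 bases had a median GC content of 70% with a gene-start peak and 66% in genes whose peaks lay elsewhere, with quartiles of 62 and 76% against 58 and 74%. Among genes with any peak, 10.3% had a gene-start peak when this content was at most 62%, 17.2% up to 70%, 17.1% up to 76% and 18.2% above. The median background at these peaks was 1.24 in the first 2 classes and 1.06 and 1.15 in the others, and the median fold 7.66, 8.74, 9.07 and 8.08. The part of base composition in the counts was not tested.

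The rule's limit of 250 bases fell in the middle of a gradual decline at the start. Just inside it, Ext2 at the stop and Fyn and Hoga1 at the start, all at 250 bases, had 12.5-fold, 7.61-fold and 4.92-fold. Just outside, at 251 bases, Plekho1 at the stop had 8.59-fold and Aldh9a1 at the start 3.01-fold. From 201 to 250 bases to 251 to 300 bases, summits fell from 144 to 96 at the start, with medians of 7.44-fold and 7.24-fold, and from 324 to 154 at the stop, with 4.55-fold and 4.60-fold.

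The gene lists that follow were chosen with earlier results of these data known, so they are described by counts and medians. Over all genes of this kind with any peak, 21.1% had a gene-end peak, and the median gene-end peak was 6.63-fold. Each share below is of the listed genes with any peak, and the ranges beside shares are exact Clopper-Pearson intervals. These intervals cover counting error only and were not adjusted for the 34 lists. Genes of a family are not independent, so an interval above or below 21.1% is a description and not a test. Some lists are given by their counts alone.

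Of 35 genes of progesterone and estrogen signalling with any peak, 3 had a gene-end peak (8.57%, 1.80 to 23.1), an interval that holds the 21.1% of all genes. Ep300, a histone acetyltransferase and coactivator, had 13.9-fold (10.7 to 17.8) from 61 fragments at the start. Fkbp5, a receptor cochaperone, had 5.24-fold at the start and Smo, the Hedgehog signal transducer, 4.75-fold at the stop. Neither hormone receptor gene, Pgr or Esr1, was among them.

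Among genes of decidualization and implantation 10 of 44 had a gene-end peak (22.7%, 11.5 to 37.8), near the 21.1% of all genes. The median of their peaks was 7.13-fold. Of receptors, Lrp6, a Wnt coreceptor, stood at 15.5-fold (10.6 to 21.9) and Fgfr1 at 11.1-fold (8.32 to 14.6), both of unlisted strand. The BMP receptor gene Bmpr2 stood at 7.31-fold (5.56 to 9.46) from 56 fragments and the TGF-beta receptor gene Tgfbr2 at 6.43-fold from 61, both at the start. Of matrix proteases, Mmp2 stood at 8.76-fold and Mmp14 at 7.53-fold. Gja1, the gap junction protein connexin 43, stood at 6.95-fold and Alpl, alkaline phosphatase of the decidua, at 6.16-fold from only 8 fragments. At the stop, the prostaglandin receptor gene Ptgfr stood at 6.18-fold from 9 fragments and Ppard, a lipid-sensing nuclear receptor, at 2.41-fold (1.81 to 3.15).

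The m6A machinery had 5 of 21 genes with a gene-end peak (23.8%, 8.22 to 47.2). The readers Ythdf3 and Ythdf2 led with 21.6-fold (16.7 to 27.5), of unlisted strand, and 10.2-fold (6.41 to 15.5) at the start. Zcchc4, which methylates ribosomal RNA, had 5.38-fold at the stop, its only peak. Eif3a, a translation factor subunit, had 4.69-fold and Mettl5, another ribosomal RNA methyltransferase, 4.10-fold from 5 fragments, both at the start.

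Among markers of the uterine wall, 9 of 28 smooth muscle genes with a peak had one at a gene end (32.1%, 15.9 to 52.4), with a median of 6.30-fold. Lmod1, which nucleates actin filaments, had 17.4-fold (13.6 to 21.9), the actin crosslinker Actn1 12.5-fold (10.1 to 15.4) and Synpo2, an actin-associated protein, 10.9-fold (7.74 to 14.9), all at the start. Of 19 endothelial genes 7 had one (36.8%, 16.3 to 61.6), led by the guidance receptor Robo4 with 10.98-fold (8.61 to 13.8) at the stop, its only peak. Of 11 stromal genes 4 had one (36.4%, 10.9 to 69.2), with the matrix genes Fn1 at 7.66-fold, Col1a1 at 5.51-fold and 4.12-fold at its opposite ends, and Col3a1 at 3.58-fold, and the growth factor receptor gene Pdgfrb at 7.33-fold. None was found in 8 epithelial genes with a peak (0 to 36.9%) and 4 trophoblast genes (0 to 60.2%), and 1 was found in 6 immune genes, in Csf1r, the receptor that macrophages depend on, at 5.97-fold.

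Chromatin regulators and Zfp zinc finger genes had a gene-end peak less often than all genes with a peak. Of 70 chromatin regulators with a peak 7 had one (10%, 4.12 to 19.5), and of 280 zinc finger genes named Zfp 21 did (7.50%, 4.70 to 11.2). Both intervals lie below the 21.1% of all genes, with gene span not matched. The remodeller subunit Smarcc1 had 15.1-fold (9.58 to 22.6) at the genome-wide background, the acetyltransferase Kat7 8.74-fold and the histone methyltransferase Setd2 7.49-fold, all at the start. In Zfp genes, 6 had a gene-start and 11 a gene-stop peak, with Zfp106 highest at 10.2-fold (6.17 to 16.0). Of 15 splicing factor genes named Srsf or Hnrnp only Hnrnpm had one (6.67%, 0.169 to 31.9), at 10.4-fold. Of 26 kinesins only Kif26b did (3.85%, 0.0973 to 19.6), at 5.74-fold, and this interval, too, lies below the 21.1%. The circadian list had 1 of 13 (7.69%, 0.195 to 36.0), in the clock kinase gene Csnk1d at 17.0-fold (12.6 to 22.5). The intervals of the splicing factor and circadian lists hold the 21.1%.

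In the lists of translation factors, the proteasome, the respiratory chain and the mitochondrial ribosome the shares were between 38.1% and 47.1%. The intervals of the Eif and respiratory chain lists lie above the 21.1% of all genes, and those of the proteasome and the mitochondrial ribosome reach below it. Of 29 translation factor genes named Eif 12 had one (41.4%, 23.5 to 61.1), with medians of 10.03-fold at 8 starts and 3.51-fold at 4 stops. Eif5b, which joins the ribosomal subunits, had 21.9-fold (16.8 to 28.0), Eif3j1 20.1-fold (15.0 to 26.6) and Eif4ebp2, a repressor of cap-dependent initiation, 13.6-fold, all at the start. Of 20 proteasome genes 8 had one (40.0%, 19.1 to 63.9), with Psmd12 at 9.53-fold and Psmd3 at 9.15-fold. Of 17 respiratory chain genes 8 had one (47.1%, 23.0 to 72.2), 6 of them at the stop with a median of 3.74-fold. The 1 at the start, in the complex I gene Ndufa8, stood at 20.1-fold (14.2 to 27.7), above Ndufs3 with 4.98-fold, Atp5c1 with 3.97-fold, Ndufv3 with 3.86-fold and Sdhb with 3.62-fold at the stop. Of 21 mitochondrial ribosome genes 8 had one (38.1%, 18.1 to 61.6), led by Mrps10 at 12.2-fold. Gene span was not matched in these shares, and in longer genes gene-stop peaks were rarer, as given above.

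Among signalling and trafficking genes, 15 of 46 named Rab had a gene-end peak (32.6%, 19.5 to 48.0), 10 at the start with a median of 8.52-fold. The highest were the membrane traffic GTPases Rab8b at 18.2-fold (13.3 to 24.3) and Rab5a at 17.8-fold (13.0 to 23.9), and Rab11fip5, an effector protein, at 15.8-fold. Of 50 phosphatase genes named Ppp or Dusp 16 had one (32.0%, 19.5 to 46.7). After Ppp2ca came 3 further phosphatase subunits at the start, Ppp4r3b at 10.5-fold, Ppp2r5d at 10.3-fold and Ppp2r5a at 10.2-fold. Of 32 MAP kinase genes 9 had one (28.1%, 13.7 to 46.7), among them Map2k2, a kinase of the middle tier of the cascade, at 10.97-fold (6.91 to 16.7) at the start and Map3k6, of its upper tier, at 9.45-fold (7.67 to 11.5) at the stop. Of 45 GTPase regulators named Arhgap or Arhgef 11 had one (24.4%, 12.9 to 39.5), with Arhgef11 at 22.96-fold (18.1 to 28.8) behind Arhgap11a. Of 165 solute carriers 34 had one (20.6%, 14.7 to 27.6), with Slco3a1 at 22.6-fold and the amino acid carrier Slc7a8 at 13.3-fold.

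In the matrix lists, 12 of 30 collagen genes had a gene-end peak (40.0%, 22.7 to 59.4), with a median of 5.73-fold. This interval, too, lies above the 21.1% of all genes. Col14a1 reached 21.0-fold (15.5 to 27.9), of unlisted strand, and Col6a3, a chain of microfibrillar collagen, 14.6-fold (10.8 to 19.3) at the start, the highest of its 20 peaks. Of 30 integrin and laminin genes 8 had one (26.7%, 12.3 to 45.9). Lamb3 had 11.6-fold (6.94 to 18.5) at the stop, from 16 fragments at the genome-wide background. The widely used integrin subunit Itgb1 had 11.4-fold at the start, from 33 fragments. Itga2b had 11.1-fold (6.74 to 17.4) at the stop, from 17 fragments. Lama5 at the stop had 1.76-fold, from 78 fragments over a background of 43.8. The shares were from 12.5% to 21.4% in the remaining lists with any such peak, which were the Usp proteases (5 of 36), the Trim (5 of 28) and F-box ligases (6 of 36), the Tmem genes (11 of 79), the cyclins and their kinases (3 of 14), the sorting nexins (4 of 19) and the Fox and Sox factors (2 of 16). No gene-end peak was found in the 7 immediate early genes and the 3 Hox genes with a peak.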

How the data were processed

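MeRIP-seq was made on 1 antibody library and 1 input library of whole uterus. The submitters' processing notes name mm10, MACS3 3.0.0a7 and HISAT2 2.2.1. Their settings, the treatment of duplicates and the library totals are not stated in the labels. The deposited fold enrichment is a ratio of IP to local background at the summit, and the deposited −log10 p and −log10 q are the caller's. The deposited display score was not used. All such values are the authors' own and describe peaks within this list.

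From fold and p the whole number of IP fragments k and the background were recovered, reading fold as (k + 1)/(background + 1) and p as a Poisson tail. The deposited −log10 p was matched within 0.001 at 100% of peaks. The method was also tested on data simulated with these same formulas, which checks the recovery and not the reading of fold and p. The simulated folds were below the gene-start median. Gene spans, biotypes and start windows came from RefSeq tables of GRCm38.p6. Rows outside the assembled chromosomes were dropped, leaving 49632 genes. No exon positions were used, so intron, exon and UTR are not told apart. Peaks carry no strand.

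Members and the 34 gene lists were chosen with earlier results of these data known. Named genes are the 10 highest folds (−log10 q of at least 5), 5 highest fragment counts and 3 lowest folds at each end, those beside the limit of 250 bases, 10 genes with both ends, and the highest of each list; the 5 of unlisted strand, and others in the lists, were added after their values were seen. Some genes that this rule names are not reported here. Tables were made with pandas 2.3.3 and numpy 2.4.6, intervals with scipy 1.17.1 and plots with matplotlib 3.10.9, under Python 3.11.15.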

Additional observations from a re-analysis of the deposited data

How the results depend on the processing

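With 1 library a group, no replicate could be left out. No paired analysis was possible because each group has 1 library and no result comes from a test. The start to stop difference, as the log2 ratio of medians, was 0.75 by fold and became -1.04 with IP fragments and 0.13 with −log10 q as score. Within the 4 classes of background, from lowest, it was 0.098, 0.30, 0.53 and 0.80. It stayed within 0.60 to 0.91 without peaks at the genome-wide background and with −log10 q of at least 5. That range joins the opposite ends of the start and stop median intervals and has no stated level. With summits at most 100 bases from an end there were 251 peaks (185 start, 13 stop), with medians of 7.77-fold overall and 6.18-fold at the stop; at most 500 bases gave 3138 peaks and 1368 at the stop, with 6.16-fold overall. Spans over 20000 bases left 415 gene-stop peaks. A fold of at least 4 left 453 at the stop, with medians of 7.36-fold overall and 6.14-fold at the stop, and −log10 q of at least 5 gave 6.86-fold and 5.26-fold. Allowing A within 2 bases of the listed start raised the share with A to 64.3%, against 62.8% of genes with any peak. The median at the start stayed within its interval, and the number at the start within 1.5 times, under every alternative except the count at 100 bases. Depth limits single gene-start peaks, whose median summit held 18 IP fragments.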
